A study of Rattus norvegicus with 80 samples.

Results

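Multi-walled carbon nanotubes (MWCNT) at 2.0 mg/kg were set against vehicle in rat lungs taken 1, 3 and 7 days after instillation. The members were the 3 arrays titled MWCNT with the 2.0 mg/kg label on those days and the 3 arrays titled as control for MWCNT, paired by day, so that 6 of the series' 80 arrays were compared. Carbon nanotubes are stiff, poorly soluble fibres. After deposition in the alveoli they are taken up by macrophages, which release chemokines that draw neutrophils and monocytes from the blood. Fibres that cannot be cleared are known to keep macrophages in an activated state and to drive repair by epithelial cells and fibroblasts.

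The exposed group was male Sprague-Dawley (Crl:CD[SD]) rats given 1 intratracheal instillation of MWCNT labelled 2.0 mg/kg, with lungs taken on days 1, 3 and 7. The vehicle group was rats of the same strain and sex given distilled water with preservatives on the same days. All animals were bought at 7 weeks of age, and right lungs were perfused with saline before total RNA was extracted. The labels name 4 rats per group and time in the extraction protocol but hold 1 array for each group and day, and they do not say whether an array is 1 rat or a pool. The treatment protocol states 1 mg/kg for every rat and gives the strengths as mg/mL of suspension, whereas the array labels give the same strengths as mg/kg. The whole series covers 3 kinds of cellulose nanofibril (CNF1, CNF2 and CNF3) and MWCNT at 3 doses and vehicle over 5 days.

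The deposited values were taken to be log2 values centred on each probe, from their range and the near-zero median of most probes, so a value near 0 is that probe's middle level over the series. They carry no absolute level. The lung label could therefore not be checked against the level of lung markers, and no gene's level is set against another's here. Probes of a gene were averaged, giving 15924 genes. The 27 spike-in and negative control spots had a median of 0.51 on the exposed array of day 1, and between -0.13 and -0.03 on the other 5 arrays. Their effect between groups had a median size of 0.414, which is larger than some gene effects below. A lung homogenate mixes all cell types, so more cells of a type and more RNA per cell cannot be told apart.

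The days served as replicates, and no gene passed Benjamini-Hochberg adjustment at 0.05 in limma's fit of the 6 arrays. This fit had 2 residual degrees of freedom, 0 of 15924 genes called, 4361 genes at an unadjusted p under 0.05 and a smallest adjusted p of 0.067. An exact permutation test of 3 pairs cannot go below a two-sided p of 0.25. When the spread was estimated from all 80 arrays with 36 residual degrees of freedom, the estimates were the same and 1283 genes (8.06%) were called higher and 831 (5.22%) lower in exposed lungs. That fit pools the scatter of other materials and doses, and quantile normalization turned the split to 1219 higher and 1504 lower. Without the MWCNT arrays of day 1, 3 or 7 it called 541, 640 and 1014 genes, with 2.39%, 2.64% and 4.55% of all genes called higher and 1.01%, 1.38% and 1.81% called lower. Below, "rose" and "fell" are used of genes called in this 80-array fit, with its adjusted p, while ± gives the SE of the 6-array fit over 3 pairs. Every gene said to have risen or fallen therefore lacks a call in the 6-array fit. The ± is not the spread behind the adjusted p of the 80-array fit. The SE over genes had a median of 0.142 in the 80-array fit and 0.0938 in the 6-array fit. For Il6 it was 0.441 in the 80-array fit and 0.116 in the 6-array fit. Other genes had the smaller SE in the 80-array fit. It was 0.543 against 0.968 in the 6-array fit for Il24, 0.552 against 0.898 for Lcn2 and 0.411 against 0.558 for Slc26a4. The adjusted p of such genes rests on a pooled SE below that of their own 3 pairs. A count "without day 1, 3 or 7" comes from the 80-array fit with the MWCNT arrays of that day left out. Each list's count of calls stands beside the shares of 8.06% higher and 5.22% lower over all genes. Each count of genes without overlap stands beside 18.7% of all genes with exposed arrays above and 14.8% below.

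Among called genes with a full symbol and a higher exposed value on all 3 days, the largest rise was that of Spp1. It encodes osteopontin, a secreted matrix and cytokine-like protein made by activated macrophages. Spp1 stood at 1.29, 2.30 and 1.69 in exposed lungs on days 1, 3 and 7, against -3.11, -4.07 and -3.93 in vehicle lungs. The groups lay far apart on each day, and the mean difference was 5.46 ± 0.42 on the log2 scale, or 44.1-fold (adjusted p = 2.52e-07 in the 80-array fit and 0.067 in the 6-array fit). Mmp12, the macrophage elastase, had -0.26, 0.56 and 0.18 in exposed lungs, against -2.79, -4.15 and -3.84 in vehicle lungs. It rose by 3.75 ± 0.47, or 13.4-fold (adjusted p = 6.86e-05 in the 80-array fit), and its smallest difference was on day 1. Mmp7, matrilysin, an epithelial protease, had 1.40, 1.43 and 0.26 in exposed lungs, against -2.04, -3.13 and -3.39 in vehicle lungs. Its groups did not overlap, and it rose by 3.88 ± 0.26 (adjusted p = 0.000179 in the 80-array fit).

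**Figure D1:**
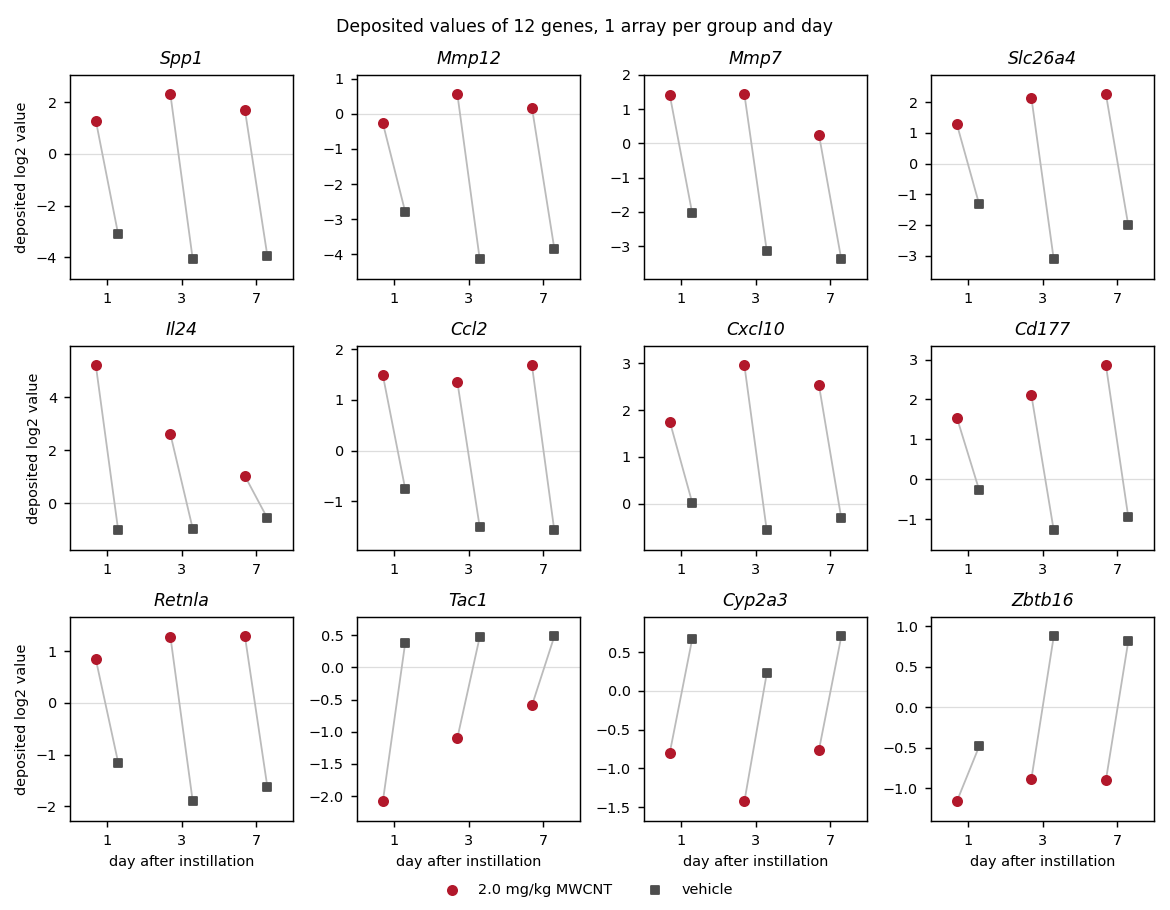
Deposited log2 values (y axis) of 12 genes on days 1, 3 and 7 (x axis), with 1 array per point, exposed lungs as red circles on the left of each pair and vehicle lungs as grey squares on the right, joined by day. In 9 genes every exposed array lies above every vehicle array, and in Tac1, Cyp2a3 and Zbtb16 every exposed array lies below. All 12 were picked by a rule that asked for the same direction on all 3 days. The Il24 difference was 6.24 on day 1, 3.58 on day 3 and 1.59 on day 7.

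Among the genes for particle uptake and macrophage activation, 17 of the 20 listed were measured, and 9 rose while 0 fell, against a background of 8.06% higher and 5.22% lower over all genes. The groups of 6 arrays did not overlap for 11 of the 17 with exposed lungs above and for 1 with exposed lungs below, where 18.7% and 14.8% of all genes had this. Trem2, a lipid receptor of phagocytes, had -0.61, 0.06 and 0.69 in exposed lungs, against -1.74, -1.60 and -1.95 in vehicle lungs. The exposed values were each higher than all vehicle values, and the mean difference was 1.81 ± 0.32 (adjusted p = 0.00453 in the 80-array fit). Gpnmb, a lysosomal glycoprotein of lipid-laden macrophages, had -0.53, -0.08 and 0.62 in exposed lungs and -1.42, -1.54 and -1.09 in vehicle lungs, and rose by 1.35 ± 0.19. Msr1, a scavenger receptor, rose by 0.86 ± 0.09, Ctsk, a collagen-cleaving cathepsin, by 1.46 ± 0.18, and Fabp5, a fatty acid carrier, by 0.83 ± 0.10. Marco, another scavenger receptor, was not called, at -1.43, -1.07 and -0.48 in exposed lungs and -1.69, -1.40 and -1.21 in vehicle lungs. The median difference of the 17 genes was 0.438 on day 1, 0.758 on day 3 and 1.02 on day 7, where the median of all genes was 0.069, 0.057 and -0.015. At least 2-fold higher were 4 of them on day 1, 6 on day 3 and 10 on day 7, against 2.54%, 4.19% and 2% of all genes. Without the MWCNT arrays of day 1, 3 or 7, the 80-array fit called 7, 5 and 4 of them.

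Of 14 measured general macrophage and monocyte markers 5 rose and 1, Pparg, a nuclear receptor of alveolar macrophages, fell by 0.60, with a median difference of 0.367. Fcgr2b, the inhibitory IgG receptor, had 0.30, 0.005 and 0.37 in exposed lungs, against -0.99, -1.31 and -0.99 in vehicle lungs, and rose by 1.32 ± 0.07 (adjusted p = 0.000413 in the 80-array fit). Fcgr1a, the high-affinity IgG receptor, rose by 0.67 ± 0.07 and Aif1, a cytoskeletal protein of macrophages, by 0.74 ± 0.08. In the lysosome list 4 of 15 genes rose and 0 fell, among them Ctsb and Ctsz, both cathepsins, with differences of 0.66 ± 0.07 and 0.66 ± 0.11 (1, 1 and 1 called without day 1, 3 or 7). No lysosome gene differed by 2-fold on any of the 3 days.

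Chemokines that attract monocytes through Ccr2 were among the most raised genes. Ccl2 had 1.49, 1.35 and 1.68 in exposed lungs, against -0.75, -1.51 and -1.57 in vehicle lungs. All exposed arrays lay above all vehicle arrays, and the rise was 2.79 ± 0.22, or 6.91-fold (adjusted p = 5.57e-06 in the 80-array fit). Ccl7 had 1.92, 1.82 and 2.32 in exposed lungs, against -0.26, -1.001 and -1.30 in vehicle lungs, and rose by 2.87 ± 0.30. Ccl12 had 2.09, 2.19 and 2.28 in exposed lungs and -0.21, -0.50 and -0.65 in vehicle lungs. Its rise was 2.64 ± 0.15 and, like those of Ccl2 and Ccl7, was present on each day. For Ccl2 and Ccl7 this was a condition of being named among the largest rises. Ccl3 and Ccl4, chemokines made by activated macrophages, rose by 1.14 ± 0.10 and 0.85 ± 0.07. Together 7 of the 10 measured genes of the list rose, 0 fell, and 8 did not overlap. Over all genes 8.06% were called higher, and 18.7% had all exposed arrays above all vehicle arrays. The list also holds the receptors Ccr2, which rose by 0.82, and Ccr1, which was not called. Its count was 4 without the MWCNT arrays of any single day.

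Among chemokines for neutrophils, Cxcl2 and Cxcl6 rose. Cxcl2 had 0.73, 1.08 and 1.24 in exposed lungs, against -0.31, -0.75 and -0.51 in vehicle lungs, a rise of 1.54 ± 0.19 (adjusted p = 0.0028 in the 80-array fit). Cxcl6 had -0.80, 0.61 and 0.99 in exposed lungs and -1.41, -2.17 and -1.66 in vehicle lungs. It rose by 2.01 ± 0.51 (adjusted p = 0.00163 in the 80-array fit), with its smallest difference on day 1. Cxcl1 did not overlap between groups but was not called, at 0.30, 0.73 and 0.52 in exposed lungs and -0.16, -0.41 and -0.0044 in vehicle lungs. In all 2 of 5 genes of the list were called, and without the MWCNT arrays of day 1, 3 or 7 the count was 3, 0 and 1.

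Promoters are shown for Cxcl2 and Cxcl6, which rose and carry a kappaB-like match, and for Cxcl10 and Ifit3, which rose and carry an ISRE-like match. NF-kappaB and interferon-regulated factors are known to act on chemokine and antiviral genes through such elements. Each stretch runs from 250 bases before to 50 bases after the RefSeq start of transcription in build GRCr8, 5′ to 3′ on the gene's strand, with matches in capitals. The kappaB-like pattern was GGG, any 2 bases and TTTCC, and the ISRE-like pattern was GAAA, any 2 bases and GAAA, each searched on both strands. Cxcl2 lies at chr14:17467206-17467505, minus strand, Cxcl6 at chr14:17596368-17596667, minus strand, Cxcl10 at chr14:15988816-15989115, plus strand, and Ifit3 at chr1:241527076-241527375, plus strand.
Cxcl2: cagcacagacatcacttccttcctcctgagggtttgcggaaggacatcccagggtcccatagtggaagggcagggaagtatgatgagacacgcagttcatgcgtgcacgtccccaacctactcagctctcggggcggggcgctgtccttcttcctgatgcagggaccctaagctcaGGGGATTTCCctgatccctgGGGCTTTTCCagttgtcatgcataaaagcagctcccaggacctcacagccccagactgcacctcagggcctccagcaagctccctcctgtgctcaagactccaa
Cxcl6: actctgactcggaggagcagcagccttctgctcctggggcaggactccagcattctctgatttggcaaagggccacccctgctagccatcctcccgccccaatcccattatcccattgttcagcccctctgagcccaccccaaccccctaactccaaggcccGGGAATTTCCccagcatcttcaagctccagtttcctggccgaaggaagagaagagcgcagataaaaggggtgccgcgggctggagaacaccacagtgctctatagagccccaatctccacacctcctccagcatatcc
Cxcl10: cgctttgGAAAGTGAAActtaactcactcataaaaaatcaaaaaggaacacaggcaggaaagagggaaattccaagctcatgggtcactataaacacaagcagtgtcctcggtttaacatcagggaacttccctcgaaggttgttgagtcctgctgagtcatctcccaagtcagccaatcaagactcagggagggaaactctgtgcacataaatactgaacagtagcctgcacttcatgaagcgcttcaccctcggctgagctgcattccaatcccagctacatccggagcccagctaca
Ifit3: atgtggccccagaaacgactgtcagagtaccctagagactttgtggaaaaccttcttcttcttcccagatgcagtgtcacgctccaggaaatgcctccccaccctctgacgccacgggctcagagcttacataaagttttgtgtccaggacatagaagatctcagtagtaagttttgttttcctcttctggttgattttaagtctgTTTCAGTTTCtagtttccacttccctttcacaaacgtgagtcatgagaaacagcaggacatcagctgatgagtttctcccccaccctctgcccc
The 5′ ends of the matches nearest the start lay 54 bases before it in Cxcl2, 88 in Cxcl6, 243 in Cxcl10 and 44 in Ifit3. A kappaB-like match lay in 3 of 4 promoters of the neutrophil-attracting list, in 2 of 7 of the monocyte-attracting list, in 29 of 1071 promoters of genes called higher (2.71%) and in 414 of 27457 promoters in all (1.51%). Cxcl1, Cxcl2 and Cxcl6 are related genes on chromosome 14, so their matches are not independent. An ISRE-like match lay in 9 of 15 promoters of the interferon list, in 37 of 1071 of genes called higher (3.45%) and in 1034 of all (3.77%). The list holds interferon-response genes whatever their change here, so its share of matches is no result of these arrays. Ifi44 and Gbp5 carried a match at 0.996-fold and 1.075-fold of vehicle, while Mx1 and Cxcl11 rose without a match. These are matches of letters, not measured binding. Measured list genes without a promoter at hand, among them Cxcl3, Ccl2, Ccl3 and Ccl4, were left out of the list counts.

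Neutrophil markers gave a mixed picture. Cd177, a surface protein of neutrophils, had 1.55, 2.11 and 2.85 in exposed lungs, against -0.27, -1.28 and -0.95 in vehicle lungs. It rose by 3.00 ± 0.44, or 8-fold (adjusted p = 2.83e-06 in the 80-array fit), with separate groups. S100a9, a subunit of calprotectin, had 1.15, 1.13 and 1.81 in exposed lungs and 0.31, -0.13 and 0.57 in vehicle lungs, and rose by 1.11 ± 0.12. Il1r2, the decoy receptor for interleukin 1, rose by 1.87 ± 0.11 and Itgam by 1.46 ± 0.23. S100a9 and Itgam were not called when the MWCNT arrays of any single day were left out. Among uncalled markers S100a8 was 1.42-fold higher, while Cxcr1 was 1.33-fold and Mmp8 1.20-fold lower. Myeloperoxidase (Mpo), with -0.69, -0.90 and 0.14 in exposed lungs and -0.83, -0.18 and -0.06 in vehicle lungs, overlapped between groups. Of 16 measured markers 4 rose, 0 fell and 12 were not called (2, 2 and 2 called without day 1, 3 or 7), and the median difference was 0.325. Itgam is also made by macrophages, and the part of cell numbers in these changes was not tested.

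Interferon-response genes had their largest median difference on day 3. Cxcl10, a ligand of Cxcr3 on T cells, had 1.75, 2.96 and 2.53 in exposed lungs, against 0.03, -0.57 and -0.31 in vehicle lungs. The exposed values were all higher, and the rise was 2.70 ± 0.38, or 6.49-fold (adjusted p = 0.000284 in the 80-array fit). Cxcl11, a related ligand, had 1.12, 2.97 and 2.25 in exposed lungs, against -1.12, -1.35 and -0.58 in vehicle lungs, and rose by 3.13 ± 0.45. Ifit3, an antiviral RNA-binding factor, had 0.72, 1.33 and 0.83 in exposed lungs, against -0.59, -0.44 and 0.01 in vehicle lungs. Mx1, an antiviral GTPase, rose by 1.31 ± 0.25, Irf7, a transcription factor of this response, by 1.07 ± 0.16 and Isg15, a ubiquitin-like modifier, by 0.95 ± 0.13. In all 9 of 21 measured genes rose, 0 fell and 13 had separate groups with exposed lungs above. The same shares over all genes were 8.06%, 5.22% and 18.7%. The median difference was 0.35 on day 1, 0.85 on day 3 and 0.66 on day 7. At least 2-fold higher were 3 genes on day 1, 8 on day 3 and 5 on day 7, against 2.54%, 4.19% and 2% of all genes. Ifit1 was not called, at -2.09, 0.41 and -0.30 in exposed lungs and -0.06, -0.51 and 0.52 in vehicle lungs. Without the MWCNT arrays of day 1, 3 or 7, 4, 3 and 4 genes of the list were called.

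**Figure D2:**
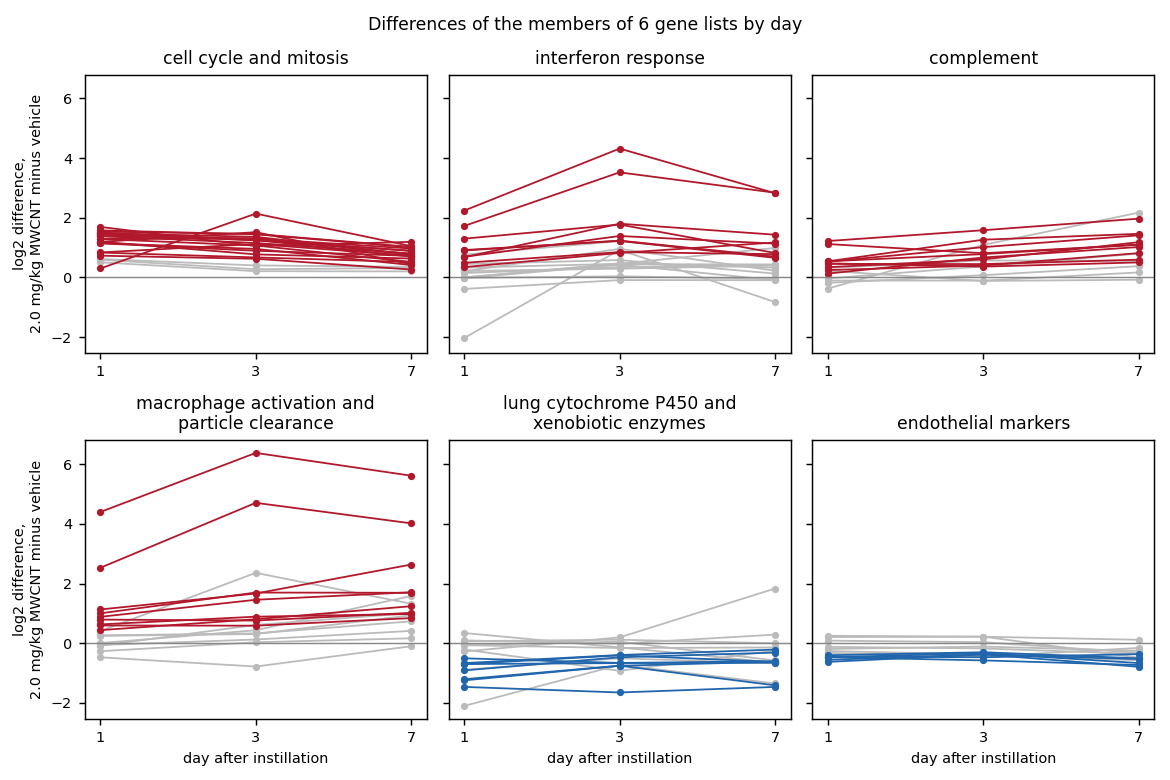
Log2 difference of exposed minus vehicle lungs (y axis) on days 1, 3 and 7 (x axis) for each measured gene of 6 lists, with red lines for genes called higher, blue for genes called lower and grey for the rest in the 80-array fit. The cell cycle median was highest on day 1 and the interferon median on day 3, and complement and macrophage genes had larger medians on day 7 than on day 1.

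Other cytokines rose in smaller numbers. Il24, a cytokine of the interleukin 10 family that acts on epithelial cells, had 5.21, 2.61 and 1.02 in exposed lungs, against -1.03, -0.97 and -0.56 in vehicle lungs. Exposed values were higher on each day, but the difference was 6.24 on day 1 and 1.59 on day 7, and the mean rise was 3.80 ± 0.97 (adjusted p = 2.38e-05 in the 80-array fit and 0.121 in the 6-array fit). Il6 had 0.38, 0.44 and -0.30 in exposed lungs and -0.91, -1.05 and -1.33 in vehicle lungs, and rose by 1.27 ± 0.12 (adjusted p = 0.0489 in the 80-array fit). Tnf rose by 0.85 ± 0.09, Osm, oncostatin M, by 0.99 ± 0.12 and Csf1, the macrophage growth factor, by 0.49 ± 0.07. Il6, Tnf and Csf1 were not called when the MWCNT arrays of any single day were left out. In this list 6 of 18 measured genes rose and 0 fell (3, 1 and 2 without day 1, 3 or 7). Of the interleukin 1 family and inflammasome genes 3 of 15 rose, namely Il1rn, the receptor antagonist, by 1.55 ± 0.12, Il1b by 0.93 ± 0.19 and Nlrp3, the inflammasome sensor, by 0.40 ± 0.08 (1, 1 and 2 without day 1, 3 or 7).

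Genes linked to type 2 responses and to dendritic cells were divided. Retnla, a secreted resistin-like protein, had 0.84, 1.28 and 1.28 in exposed lungs, against -1.16, -1.91 and -1.62 in vehicle lungs, with no overlap and a rise of 2.69 ± 0.26 (adjusted p = 0.000835 in the 80-array fit). Chia, an acidic chitinase, rose by 2.00 ± 0.20 and Chi3l1, a chitinase-like protein, by 1.41 ± 0.21. Il13, with -0.44, -0.28 and 0.14 in exposed lungs and -0.38, -0.18 and -0.20 in vehicle lungs, overlapped. Tslp fell by 0.33, and the list had 4 higher, 1 lower and 10 uncalled genes of 15. Ccl17 and Ccl22, ligands of Ccr4, rose by 1.97 ± 0.14 and 2.09 ± 0.18, while Ccl21, a lymphatic chemokine, fell by 0.57 ± 0.10. Of 10 chemokine and receptor genes of that second list 3 rose and 1 fell (2, 1 and 2 higher and 0, 0 and 0 lower without day 1, 3 or 7). Alox15, a lipoxygenase of eosinophils and macrophages, fell by 0.76 ± 0.15.

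Most complement genes rose. C3, the central component, had 1.10, 0.87 and 1.27 in exposed lungs, against -0.12, -0.72 and -0.70 in vehicle lungs. The rise was 1.59 ± 0.17, or 3.02-fold (adjusted p = 3.69e-05 in the 80-array fit), with separate groups. C1qa, a chain of the recognition molecule C1q, had 0.13, 0.54 and 0.85 in exposed lungs and -0.41, -0.48 and -0.56 in vehicle lungs, and rose by 0.99 ± 0.19. C3ar1, the receptor for C3a, rose by 1.01 ± 0.10 and Cfi, a protease that degrades C3b, by 1.09 ± 0.21. Of 16 measured genes 10 rose, 0 fell and 10 had separate groups with exposed lungs above. The same shares over all genes were 8.06%, 5.22% and 18.7%. The list median was 0.33 on day 1, 0.59 on day 3 and 0.92 on day 7, and without the MWCNT arrays of those days the counts of called genes were 7, 5 and 3.

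Secreted defence proteins held several of the largest rises. Lcn2, which binds bacterial siderophores, had 0.96, 1.77 and 2.36 in exposed lungs, against 0.20, -3.30 and -0.91 in vehicle lungs. Its difference of 5.07 on day 3 rested on a low vehicle value, the mean rise was 3.03 ± 0.90, and without the MWCNT arrays of day 3 its adjusted p in the 80-array fit was 0.0565. Orm1, orosomucoid, an acute phase protein, had 5.12, 2.44 and 2.22 in exposed lungs and 0.78, -1.20 and 0.29 in vehicle lungs, and rose by 3.30 ± 0.52. Without the MWCNT arrays of day 1 or of day 3 the adjusted p of Orm1 in the 80-array fit was 0.167 and 0.106. Serpina3n, a protease inhibitor, rose by 1.98 ± 0.25 (adjusted p = 0.0384 in the 80-array fit). It was not called when the MWCNT arrays of any single day were left out. Of 16 measured genes of the list 5 rose and 0 fell (2, 0 and 2 without day 1, 3 or 7).

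Slc26a4 and Slc5a5, both anion carriers, were among the 16 largest rises named by rule. Slc26a4, pendrin, which exchanges chloride for bicarbonate, thiocyanate or iodide, had 1.29, 2.14 and 2.25 in exposed lungs, against -1.33, -3.12 and -2.01 in vehicle lungs. It rose by 4.05 ± 0.56, or 16.6-fold, with the smallest adjusted p of all genes in the 80-array fit (8.06e-08). The SE of Slc26a4 in that fit was 0.411, and its adjusted p in the 6-array fit was 0.073. Slc5a5, the sodium iodide symporter, had 2.83, 1.57 and 0.55 in exposed lungs and 0.17, -2.12 and -2.44 in vehicle lungs. Its values were lower by day 7 in both groups, and its rise was 3.11 ± 0.23. Nos2, the inducible nitric oxide synthase, rose by 1.27 ± 0.20, but was not called when the MWCNT arrays of any single day were left out. Mab21l3 rose by 3.36 ± 0.41 and Gsg1 by 2.82 ± 0.30, with separate groups in both. The growth factors Areg and Ereg, ligands of the epidermal growth factor receptor, rose by 1.53 and 1.21.

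Nearly all cell cycle genes rose. All 22 listed genes were measured and were higher than vehicle on each of the 3 days, as were 29.5% of all genes. Of them 19 rose and 0 fell, and in 21 the exposed arrays lay above the vehicle arrays. Over all genes 8.06% were called higher, and in 18.7% the exposed arrays lay above. Mki67, a marker of cycling cells, had 1.84, 0.78 and 0.68 in exposed lungs, against 0.41, -0.48 and -0.02 in vehicle lungs. Both groups were highest on day 1, and the rise was 1.13 ± 0.17, or 2.19-fold (adjusted p = 0.000312 in the 80-array fit). Ccna2, cyclin A2, had 1.86, 0.77 and 0.75 in exposed lungs and 0.32, -0.69 and -0.28 in vehicle lungs, and rose by 1.34 ± 0.13. Rrm2, a subunit of ribonucleotide reductase, rose by 1.34 ± 0.14, Birc5, survivin, by 1.20 ± 0.14 and Ube2c, which loads ubiquitin for the anaphase complex, by 1.22 ± 0.11. Not called were Aurka, Pcna and Tyms, with differences of 0.46, 0.31 and 0.40. The median difference was 1.24 on day 1, 1.14 on day 3 and 0.73 on day 7, with 15, 14 and 4 genes at least 2-fold higher. The shares of all genes at least 2-fold higher on those days were 2.54%, 4.19% and 2%. Without the MWCNT arrays of day 1, 3 or 7, 9, 11 and 17 of the genes were called.

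Cholesterol synthesis and oxidative stress genes rose in part. Mvd, which makes isopentenyl diphosphate, had 0.98, 0.75 and 0.63 in exposed lungs, against 0.02, -0.25 and -0.35 in vehicle lungs, and rose by 0.98 ± 0.06 (adjusted p = 5.18e-05 in the 80-array fit). Dhcr7, a late enzyme of the pathway, rose by 0.72 ± 0.12 and Cyp51, which removes a methyl group from lanosterol, by 0.62 ± 0.11. In this list 7 of 11 measured genes rose and 0 fell (5, 4 and 4 without day 1, 3 or 7). Slc7a11, the cystine carrier for glutathione synthesis, had 0.11, -0.01 and 0.19 in exposed lungs, against -2.03, -2.60 and -2.24 in vehicle lungs. It rose by 2.39 ± 0.11, or 5.25-fold, with separate groups. Sod2, mitochondrial superoxide dismutase, rose by 1.38 ± 0.16 and Hmox1, heme oxygenase, by 0.76 ± 0.06, whereas Nqo1, a classic NRF2 target, was not called and differed by -0.12 ± 0.08. Of the 14 NRF2 and oxidative stress genes 5 rose (2, 2 and 3 without day 1, 3 or 7), and Gsta1 fell by 0.50.

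Some matrix genes rose. Has2, which makes hyaluronan, had 0.10, 0.66 and 0.69 in exposed lungs, against -0.56, -0.72 and -0.83 in vehicle lungs, and rose by 1.19 ± 0.20 (adjusted p = 0.00398 in the 80-array fit). Thbs1, thrombospondin 1, had 0.92, 0.22 and -0.43 in exposed lungs and -0.67, -1.06 and -0.78 in vehicle lungs. It rose by 1.07 ± 0.27, with its largest difference on day 1. Timp1, an inhibitor of metalloproteinases, rose by 0.89 ± 0.26, with differences of 1.57, 0.67 and 0.41 on days 1, 3 and 7. Neither Thbs1 nor Timp1 was called without the MWCNT arrays of day 1 or without those of day 3. Col1a1, the main fibrillar collagen chain, had 0.31, 0.21 and 0.10 in exposed lungs and 0.29, 0.45 and 0.04 in vehicle lungs, which overlapped. In the list of 19 measured matrix genes 3 rose and 0 fell, against 8.06% and 5.22% of all genes. The count was 1, 0 and 1 without day 1, 3 or 7, and the list's median difference was -0.009. Quantile normalization gave 2 higher and 2 lower with a median of -0.17, and control-spot factors gave 6 higher and 0 lower.

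**Figure D3:**
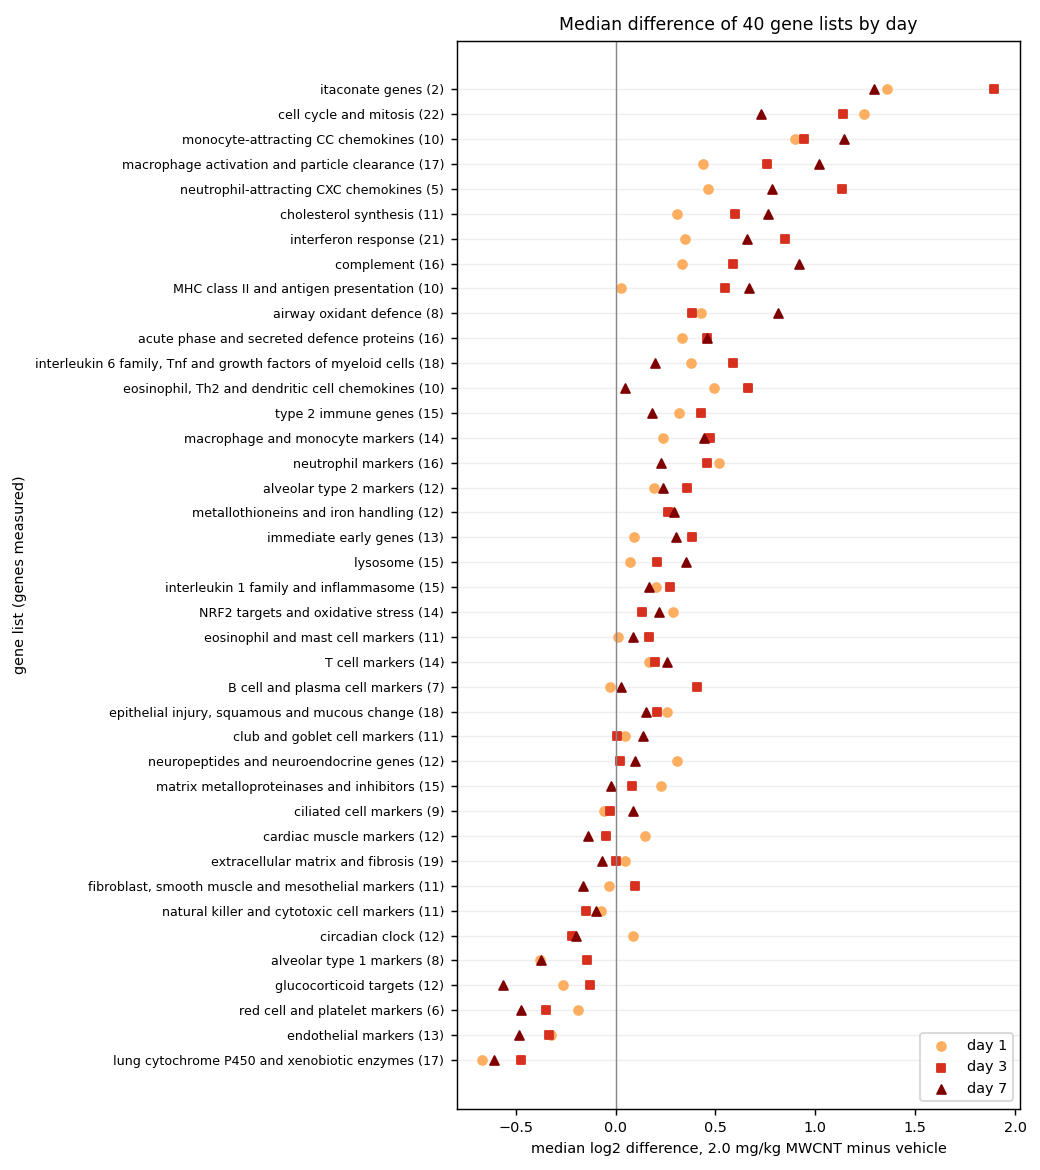
Median log2 difference of exposed minus vehicle lungs (x axis) for 40 gene lists (y axis, number of measured genes in brackets) on days 1, 3 and 7. The cell cycle median was 1.24, 1.14 and 0.73 in day order and that of macrophage activation 0.44, 0.76 and 1.02, while the cytochrome P450 list lay at -0.67, -0.47 and -0.61.

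Among enzymes of foreign compound metabolism 8 of 17 fell, against 5.22% of all genes, and the others were not called. Cyp2a3, a nasal and lung cytochrome P450, had -0.80, -1.43 and -0.76 in exposed lungs, against 0.67, 0.22 and 0.70 in vehicle lungs. It fell by 1.53 ± 0.08 on the log2 scale (adjusted p = 0.0011 in the 80-array fit), with a like difference on each day. Fmo2, the lung flavin monooxygenase, had -1.28, -0.82 and -0.99 in exposed lungs and -0.08, -0.07 and 0.42 in vehicle lungs, and fell by 1.13 ± 0.15. Cyp4b1 fell by 0.87 ± 0.15 and Aldh1a1, a retinal dehydrogenase, by 0.67 ± 0.06. Of the 17 genes 0 rose and 12 were lower than vehicle on each day, as were 23.9% of all genes. Separate groups with exposed lungs below were seen in 9, against 14.8% of all genes. The list median was -0.67 on day 1, -0.47 on day 3 and -0.61 on day 7. Without the MWCNT arrays of day 1, 3 or 7, 3, 5 and 5 genes were called. Cyp2f4, a club cell cytochrome, fell by 0.86 ± 0.14, while Scgb1a1, the defining club cell secretoglobin, was not called, at -0.29, -0.12 and -0.09 in exposed lungs and -0.07, 0.18 and 0.12 in vehicle lungs.

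Among markers of the alveolar wall, 6 of 13 endothelial and 3 of 8 alveolar type 1 markers fell. Cldn5, the endothelial tight junction protein, had -0.35, -0.24 and -0.35 in exposed lungs, against 0.20, 0.14 and 0.19 in vehicle lungs. The groups were separate and it fell by 0.49 ± 0.08 (adjusted p = 0.00116 in the 80-array fit). Ednrb, an endothelin receptor of alveolar capillaries, fell by 0.59 ± 0.08 and Plvap, which forms the diaphragms of fenestrae, by 0.60 ± 0.11. Of 13 endothelial markers 6 fell and 0 rose, while Vwf, von Willebrand factor, had a difference of 0.18 ± 0.07 and was not called, and Pecam1 differed by -0.01 ± 0.18. The endothelial count was 2 without the MWCNT arrays of any single day and 9 after quantile normalization. Cav1, caveolin 1, had -0.56, -0.23 and -0.33 in exposed lungs, against 0.06, 0.20 and 0.23 in vehicle lungs, and fell by 0.54 ± 0.08. Ager, a receptor dense on alveolar type 1 cells, fell by 0.36 ± 0.07 and Aqp5, a water channel, by 0.37 ± 0.10. Of 8 alveolar type 1 markers 3 fell and 0 rose, with 7 falling after quantile normalization and 0, 1 and 1 without the MWCNT arrays of day 1, 3 and 7. Among alveolar type 2 markers 3 of 12 rose (2, 0 and 0 without day 1, 3 or 7), including Sftpa1, surfactant protein A, by 0.43 ± 0.09 and Napsa, which processes surfactant protein B, by 0.36 ± 0.08. Dcn, decorin of fibroblasts, had -0.64, -0.84 and -0.89 in exposed lungs and 0.06, 0.52 and 0.15 in vehicle lungs, and fell by 1.03 ± 0.15. Markers of natural killer cells and of B cells gave 0 calls among 11 and 7 measured genes in limma's 80-array fit (1 and 0 after quantile normalization). Over all genes 8.06% were called higher and 5.22% lower, so 0 calls in lists this short tells little about these cells. In limma's 6-array fit 1 natural killer and 0 B cell markers had an unadjusted p under 0.05. The smallest adjusted p of the lists in that fit were 0.0806 for Klrk1 and 0.269 for Mzb1.

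Tac1 and Zbtb16 were also among the 8 largest falls named by rule. Tac1, the precursor of substance P, had -2.08, -1.10 and -0.59 in exposed lungs, against 0.38, 0.48 and 0.48 in vehicle lungs. It fell by 1.70 ± 0.30 (adjusted p = 0.000922 in the 80-array fit), with the largest difference on day 1, and its adjusted p without day 1 was 0.0683. Calcb, a calcitonin gene-related peptide, had 2.10, 2.15 and 1.05 in exposed lungs and -0.23, -1.17 and -0.93 in vehicle lungs, and rose by 2.54 ± 0.29. Zbtb16, a transcription factor induced by glucocorticoids, had -1.16, -0.88 and -0.90 in exposed lungs, against -0.48, 0.87 and 0.81 in vehicle lungs. It fell by 1.38 ± 0.26, and 4 of 12 glucocorticoid targets fell in all (2, 3 and 1 without day 1, 3 or 7), the others being Klf9 by 0.68, Dusp1 by 0.80 and Tsc22d3 by 0.43. Tex36 fell by 1.36 ± 0.11, Spic, a transcription factor of red pulp macrophages in mice, by 1.37 ± 0.31, and Asb11 by 1.36 ± 0.36. Neither Spic nor Asb11 was called without day 1 or without day 3. The receptor genes Or13a26 (olfactory) and Tas2r118 (taste) fell by 1.55 ± 0.26 and 1.42 ± 0.19, with adjusted p of 0.0457 and 0.0447 in the 80-array fit, and neither was called without the MWCNT arrays of any single day.

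The remaining lists stand beside the same background of 8.06% higher and 5.22% lower. Among 15 metalloproteinases and inhibitors Mmp7 and Timp1 rose and Mmp16 and Timp3 fell (1, 1 and 2 higher and 0, 0 and 1 lower without day 1, 3 or 7). Cd80, a costimulatory receptor, rose by 1.22 ± 0.18 and RT1-DMa, which loads peptides on class II molecules, by 0.87 ± 0.08. Of 10 antigen presentation genes 2 rose and 0 fell, with 1 higher without day 3, 3 higher after quantile normalization and 6 higher with control-spot factors. Of 13 immediate early genes 3 rose, with Fosl1, a subunit of AP-1, at 1.83, 0.58 and 0.34 in exposed lungs, against -1.17, -0.88 and -0.51 in vehicle lungs, and 1 fell (1, 2 and 2 higher and 0, 1 and 0 lower without day 1, 3 or 7). Of 18 genes of epithelial injury 5 rose and 0 fell, among them Mab21l3, Areg and Ereg (2, 3 and 4 without day 1, 3 or 7). Of 8 airway oxidant genes 2 rose, Slc26a4 and Nos2 (1, 1 and 1 without day 1, 3 or 7).

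Metallothionein and iron genes had 3 rises among 12, including Mt1, a zinc-binding metallothionein, which rose by 0.65 ± 0.09 (0, 1 and 2 without day 1, 3 or 7). T cell markers had 1 rise among 14, that of Icos, a costimulatory receptor, by 0.85 ± 0.23, and 0 in the fits without a day. Eosinophil and mast cell markers had 0 rises and 1 fall among 11 (1, 0 and 0 lower without day 1, 3 or 7), and among 6 red cell and platelet markers 0 rose and Hbb, a beta globin, fell by 0.78 ± 0.19. No marker of that list was called without day 1, 3 or 7, and 5 of the 6 were called lower after quantile normalization, with a median of -0.753 against -0.342 as deposited. Cardiac muscle markers had 0 calls among 12 in limma's 80-array fit. Ciliated cell markers had 1 rise and 1 fall among 9 and 0 calls in the fits without a day, and club and goblet markers 1 rise and 2 falls among 11. The ciliated median changed sign with control-spot factors and the club and goblet median with quantile normalization. Fibroblast, smooth muscle and mesothelial markers had 1 rise and 3 falls among 11 (0, 0 and 1 higher and 3, 2 and 2 lower without day 1, 3 or 7). Clock genes had 1 rise and 3 falls among 12 (0, 2 and 1 higher and 1, 2 and 3 lower). Neuropeptide genes had 2 rises and 1 fall among 12 (1, 1 and 1 higher and 0, 1 and 1 lower).

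Day by day, 405 genes (2.54%) were at least 2-fold higher and 187 (1.17%) lower on day 1, 667 (4.19%) and 138 (0.867%) on day 3, and 318 (2%) and 227 (1.43%) on day 7. With 1 array per group and day these counts have no replicate check. Over the 15924 genes, which are not independent, the differences correlated at 0.66 between days 1 and 3, 0.39 between days 1 and 7 and 0.43 between days 3 and 7 (Pearson's r, each day with its own vehicle array). A change over time was tested as the difference of the dose slopes of day 7 and day 1 over vehicle and the 3 doses in 12 arrays. No gene passed at 0.05 in limma with Benjamini-Hochberg adjustment (0%), with 400 at an unadjusted p under 0.05. The smallest p included Tnc, tenascin C, which had 1.53, 0.54 and 0.14 in exposed lungs and 0.31, 0.25 and 0.06 in vehicle lungs, Fgg, fibrinogen gamma, with -0.67, 0.02 and 0.85 in exposed lungs against -0.14, -0.19 and 0.02 in vehicle lungs, and Ptger3, a prostaglandin receptor, with 0.58, -0.59 and -1.23 in exposed lungs against -0.64, -0.16 and -0.01 in vehicle lungs. The day order of the list medians given above is thus a description.

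The lower doses were read against the same vehicle arrays. Spp1 differed from vehicle by 1.95, 2.47 and 4.40 at 0.5 mg/kg, 1.0 mg/kg and 2.0 mg/kg on day 1, by 3.71, 3.95 and 6.38 on day 3 and by 3.31, 4.86 and 5.61 on day 7. Its difference was larger at each higher dose on each day. Il24 differed by 3.63, 4.70 and 6.24 on day 1 and by 0.51, 0.77 and 1.59 on day 7 in the same dose order. C3 differed by 1.69, 1.77 and 1.22 on day 1 in that order. On the same day Tnf differed by 1.94, 1.35 and 0.71 and Osm by 1.74, 1.29 and 0.88, both highest at 0.5 mg/kg. The interferon list had medians of 1.07, 0.47 and 0.85 at the 3 doses on day 3, so that the lowest dose stood highest there. Marco, named after its values were seen, differed by 2.57, 1.77 and 0.26 on day 1 and by 1.64, 0.97 and 0.73 on day 7. The endothelial median on day 7 was -0.07, -0.23 and -0.49, largest in size at the highest dose. All doses share 1 vehicle array per day. A slope over dose within each day called 0 of 15924 genes on day 1, on day 3 and on day 7 (limma, Benjamini-Hochberg adjustment). The adjusted p of that slope was 0.397, 0.602 and 0.38 for Spp1 on days 1, 3 and 7. For Il24 it was 0.267, 0.67 and 0.825. The order of single arrays was not tested in another way.

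**Figure D4:**
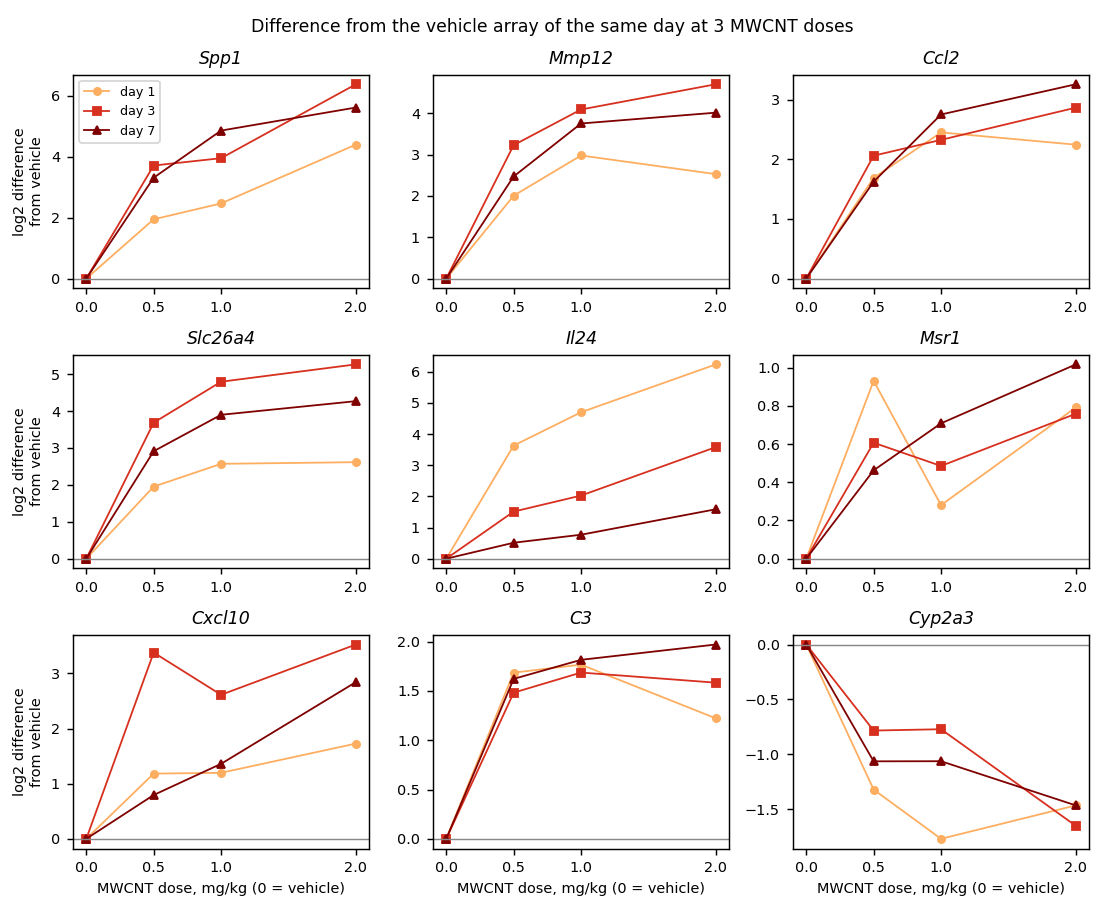
Log2 difference from the vehicle array of the same day (y axis) at vehicle and the 3 MWCNT doses in mg/kg (x axis) for 9 genes, with 1 array per point and 1 line per day. Spp1 and Il24 stand higher at each higher dose on each day, whereas C3 on day 1 was 1.69 at 0.5 mg/kg and 1.22 at 2.0 mg/kg.

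Set against the mean of CNF1, CNF2 and CNF3 at 2.0 mg/kg, each over its own vehicle on the same days, no gene differed for MWCNT in limma with Benjamini-Hochberg adjustment (0 of 15924, 0%, with 1126 at an unadjusted p under 0.05 and a median SE of 0.18). A missed threshold does not show that the materials acted alike. The cell cycle list had a median effect of 1.08 for MWCNT and 1.01 for the nanofibrils. Interferon genes had 0.59 for MWCNT and -0.12 for the nanofibrils, with Mx1 at 1.31 and -0.14 and Irf7 at 1.07 and -0.12. Cxcl11, at 3.13 and 2.45, Cxcl10, at 2.70 and 1.38, and Ifit2, at 0.93 and 0.46, were above 0 for the nanofibrils too. The difference between materials was 1.45 ± 0.45 for Mx1 (adjusted p = 0.7). S100a9 was 1.11 for MWCNT and -0.48 for the nanofibrils. Both itaconate genes were lower for MWCNT: Acod1, which makes itaconate, was 2.00 against 4.35, and Slc13a3, a dicarboxylate carrier, 1.03 against 5.12 for the nanofibrils, with neither difference called. Macrophage activation genes had a median of 0.83 for MWCNT and 1.5 for the nanofibrils. Against CNF1 alone 1 gene was called, Fam107a, lower for MWCNT by 1.51 ± 0.16 (adjusted p = 0.0496).

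**Figure D5:**
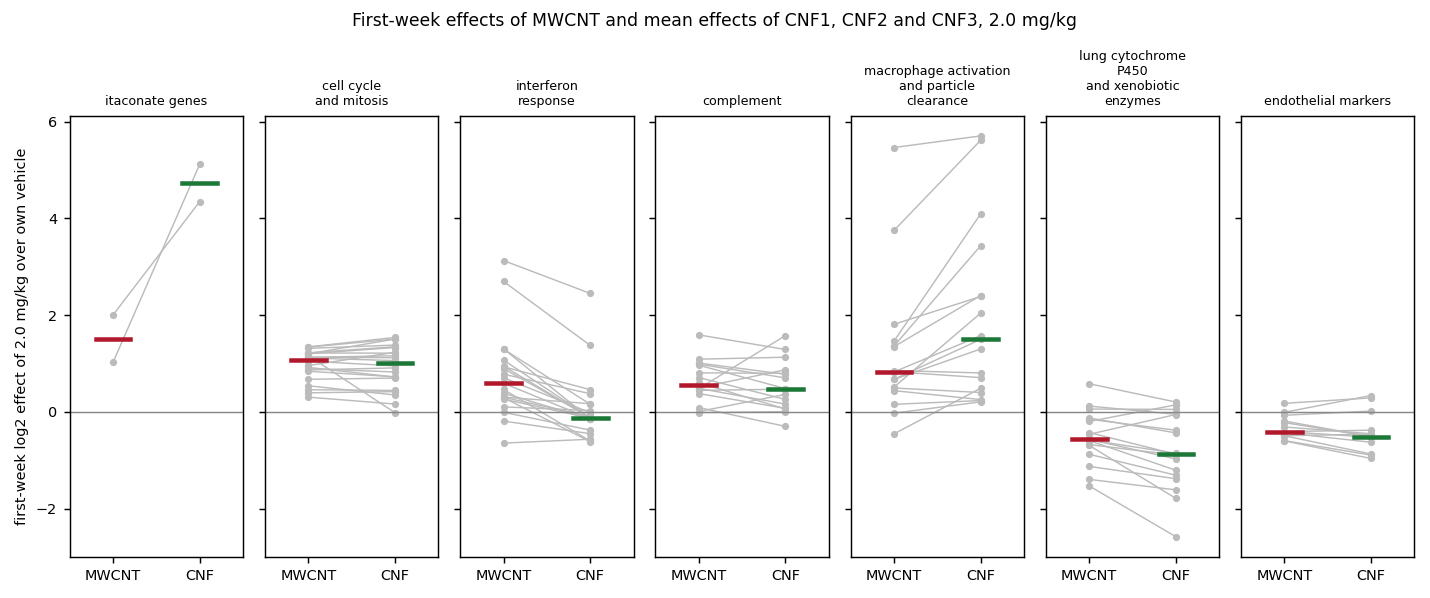
Log2 effect of 2.0 mg/kg over the material's own vehicle, mean of days 1, 3 and 7 (y axis), for MWCNT on the left and the mean of CNF1, CNF2 and CNF3 on the right, with 1 grey line per gene of 7 lists and thick bars for list medians. Interferon medians were 0.59 and -0.12, itaconate medians 1.52 and 4.73, and cell cycle medians 1.08 and 1.01.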

How the data were processed

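Total RNA of rat right lungs was hybridised to 1-colour Agilent arrays, and the submitters' processing notes name Agilent Feature Extraction 12.0.3.1. The deposited values were taken to be log2 values centred on each probe, from the values themselves. Base, centring and normalization method are not given in the sources used here. Precision is limited by the number of arrays. Symbols were updated through RefSeq accessions, and 20932 of 41012 rat probes carried 1 symbol, giving 15924 genes. Of these genes 3910 had more than 1 probe, and probes were averaged.

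limma 3.58.1 in R 4.3.3 with empirical Bayes and Benjamini-Hochberg adjustment at 0.05 was fitted to 6 arrays with day as a block, and, as an alternative, to all 80 arrays. The rule for named genes was to take the 16 largest rises and 8 largest falls among calls, the 4 genes of smallest p per list and the 12 of smallest p for the change of slope. The 6-array fit made no call, so the first step was applied to the calls of the 80-array fit, a choice made after seeing the data. Other list genes named as examples were chosen after their values were seen. The members and the 40 lists were chosen with earlier results of these data known. Where nothing says that arrays came from separate animals, p-values measure only the spread between these arrays. The scripts were tested on simulated data. Alternatives changed the block, the arrays fitted, the control, the scaling, the probe summary and the days included.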

Additional observations from a re-analysis of the deposited data

Results flagged for a closer look

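On the 2.0 mg/kg MWCNT array of day 1, the 27 spike-in and negative control spots, which the comparisons do not use, had a median of 0.512 on the deposited log2 scale, against -0.087 on the vehicle array of that day. The other exposed arrays had -0.091 on day 3 and -0.128 on day 7, with -0.05 and -0.028 on their vehicle arrays. Between exposed and vehicle arrays the effect on these spots had a median size of 0.414, with 4 of 27 called by limma in the 6-array comparison after Benjamini-Hochberg adjustment over the 27 spots and 7 at an unadjusted p under 0.05. The part of this offset in the day 1 differences was not tested.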

How the results depend on the processing

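The count of called genes for 2.0 mg/kg MWCNT against vehicle in limma with Benjamini-Hochberg adjustment differed between settings that changed the spread estimate, the values or both. It was 0 with the 6 arrays and day as a block, 351 with no day block, 523 with a trended and robust prior, 341 after quantile normalization (167 higher and 174 lower), 2114 with all 80 arrays and 2512 when 3 control-spot factors were added. It stayed at 0 with the 24 arrays of 2.0 mg/kg and vehicle, with the mean of the 4 vehicles as control, with arrays centred on the median rat probe, with the median of the probes, with every probe, with a 2-fold minimum and without day 1, 3 or 7, where 2535, 2100 and 5317 genes had an unadjusted p under 0.05. In alternatives chosen after seeing the data, the 80-array count was 541, 640 and 1014 without the MWCNT arrays of day 1, 3 and 7, 765 without the 0.5 and 1.0 mg/kg arrays and 3513 with the MWCNT arrays alone. The difference from the mean nanofibril effect had 0 calls, against 1 for CNF1 alone. The effect changed sign for Hydin (-0.00582) and Il5ra (-0.0602) with control-spot factors, and for Cd79a (-0.131), Nppa (-0.415) and Actc1 (-0.0673) with the mean of the 4 vehicles; the cause was not tested. The comparison was paired by day. By replicate number no paired analysis was possible because all 6 arrays carry the same number. With 1 array per group and day, the days stand in for replicates, and depth has no meaning for these centred values.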
